A study of Mus musculus with 8 samples.

Results

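The vault proteins PARP4 and TEP1, the other PARP enzymes that share the catalytic domain of PARP4, and the tankyrases were followed at the transcript level in the cingulate cortex of *Mvp* knockout mice. The set held 10 genes, chosen by symbol from their known roles, with earlier results of these data known: *Parp4*, *Tep1*, *Parp1*, *Parp2*, *Parp3*, *Parp6*, *Parp8*, *Parp11*, *Tnks* and *Tnks2*. All 10 were found by identifier among the 53379 genes of the count table, and all 10 had enough counts to be among the 16914 genes tested. Bulk RNA sequencing compared 4 WT with 4 Mvp KO male mice, all untreated. The methods of the study call its replicates biological, and the labels name no animals. The Mvp KO allele is a gene trap, a β-galactosidase and neomycin resistance cassette with a polyA signal in the first intron of *Mvp*, and it is constitutive rather than limited to a cell type. The study states that its work after the first brain measurements compared homozygous mutants with WT mice. The single-gene lines of the study were on a C57BL/6 background, and the age of the mice used for sequencing is not given in the sources used here.

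The vault is a hollow, barrel-shaped ribonucleoprotein particle whose shell consists of the major vault protein, the product of *Mvp*. PARP4 (also called vault PARP) and TEP1 (telomerase-associated protein) are the minor proteins held inside this shell, where TEP1 binds the small untranslated vault RNAs and PARP4 can transfer ADP-ribose to the major vault protein. PARP enzymes take ADP-ribose from NAD and attach it to proteins. PARP1, PARP2 and the tankyrases build chains of it, while most other members of the family add single units.

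Some of the 10 genes lie close to each other or share their start region with another gene in the GENCODE annotation of GRCm38. *Tep1* and *Parp2* are tail-to-tail neighbours on chromosome 14: *Parp2* (ENSMUSG00000036023) runs on the plus strand from 50807841 to 50821301, *Tep1* (ENSMUSG00000006281) on the minus strand from 50824059 to 50870560, and 2757 bp separate them. *Parp4* (ENSMUSG00000054509) lies on the plus strand of the same chromosome from 56575619 to 56659794. *Parp2*, *Parp3* and *Parp4* each start within 1000 bp of the start of a gene on the other strand, as 10.8% of 22028 protein-coding genes do. The start of *Parp2* lies 74 bp from that of *Rpph1*, the RNA component of RNase P, and the start of *Parp4* 194 bp from that of *Cenpj*, a centriole protein gene. The annotated start of *Rrp9*, on the other strand, lies inside *Parp3*. The intergenic stretches that *Parp2* and *Parp4* share with their partners are shown because each can hold regulatory sequence for both genes. They are read 5′ to 3′ on the strand of the PARP gene from the RefSeq promoter table (GRCm38.p6), and capitals mark the GC box, searched as GGGCGG on both strands.
Parp2, chr14:50807768-50807840: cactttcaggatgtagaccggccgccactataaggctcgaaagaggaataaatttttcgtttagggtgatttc
Parp4, chr14:56575426-56575618: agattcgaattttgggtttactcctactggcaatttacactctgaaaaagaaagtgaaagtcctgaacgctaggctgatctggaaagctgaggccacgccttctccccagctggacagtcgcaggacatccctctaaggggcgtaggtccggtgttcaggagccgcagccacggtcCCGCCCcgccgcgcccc
The *Parp4* stretch holds 12 CpG dinucleotides in 193 bases and 1 GC box, and the *Parp2* stretch 4 CpG in 73 bases and no GC box. In RefSeq windows of 300 bases, from 250 before to 50 after a start, GGGCGG was present in 6 of the 9 windows of the 8 matched genes and in 35.7% of 32851 windows of all genes. Other motifs searched were CCAAT (4 of 9, against 37.4%), ATTTGCAT (1 of 9, against 1.74%) and TATAAA (0 of 9, against 13.6%). The 9 windows held 5 to 37 CpG, against a median of 7 for all windows. The part of base content in the GC box count was not tested.

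Total counts ranged from 28456504 to 42854368 per sample. The targeted gene was read first, in CPM scaled with TMM factors, the unit of all values unless another is named. The WT samples, in the order of their replicate numbers, held 6.81, 7.12, 7.89 and 5.49 CPM of *Mvp*, and the Mvp KO samples held 1.45, 1.44, 2.13 and 1.51 CPM, which does not overlap. On the log2 scale *Mvp* differed by -2.06 between Mvp KO and WT (SE 0.186; adjusted p = 0.0162, edgeR's quasi-likelihood test). No other gene reached this threshold in that fit, and *Mvp* alone makes 0.00591% of the genes tested. The adjusted p of *Mvp* was 9.63e-22 by DESeq2's Wald test, which called 2 genes, *Mvp* among them. By limma voom it was 0.00123. In the edgeR fit, the adjusted p of *Mvp* rose above 0.05 when any of WT replicates 1, 2 and 3 or Mvp KO replicates 1, 2 and 4 was left out. It was at most 0.147 by edgeR's quasi-likelihood test, with log2 fold changes from -2.22 to -1.99 over the left-out samples. Of the *Mvp* exonic bases, 4.54% are shared with *Pagr1b*. WT replicate 4 lay far from the remaining samples in a principal component analysis, and 61.7% of all genes tested had their highest or lowest value in it. Values without this sample are given beside the results that rest on it.

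The genotypes overlapped for both minor vault proteins, and neither gene passed the test. Listed by replicate number here and in what follows, *Parp4* had 4.95, 5.34, 4.93 and 4.95 CPM in the WT samples, and 5.19, 5.58, 4.08 and 4.77 CPM in the Mvp KO samples. The WT samples lay close together, and the Mvp KO samples spread to both sides of them. Mean expression was 5.04 ± 0.199 CPM in WT and 4.90 ± 0.641 CPM in Mvp KO (SD, n = 4 each). This is -0.04 on the log2 scale, and the ratio of Mvp KO to WT had a 95% interval from 0.790 to 1.20. The log2 value was 0.037 without Mvp KO replicate 3. *Tep1* had 6.40, 6.61, 7.14 and 6.89 CPM in WT and 6.64, 7.46, 6.47 and 5.12 CPM in Mvp KO. The highest and the lowest *Tep1* values were both Mvp KO samples. Its means were 6.76 ± 0.326 CPM in WT and 6.42 ± 0.969 CPM in Mvp KO (SD, n = 4 each), which is -0.07 on the log2 scale with a 95% interval of the ratio from 0.772 to 1.17. Without Mvp KO replicate 4, the log2 value was 0.018. These genes rest on 136 to 232 counts per sample for *Parp4* and 146 to 287 for *Tep1*. Antisense transcripts cover 5.13% of the exonic bases of *Parp4* (*Gm16573*) and 1.505% of those of *Tep1* (*Gm26782*). The libraries were made with a stranded kit, but the strand setting of the counting is not stated. How reads from these shared bases were counted is therefore not known.

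Per length, *Parp4* and *Tep1* were near the level of *Mvp* in WT and above it in Mvp KO. The ratio of *Parp4* to *Mvp* in CPM per kb of exonic bases was 0.849, 0.876, 0.728 and 1.05 in the WT samples, against 4.19, 4.51, 2.23 and 3.69 in the Mvp KO samples. The ratio of *Tep1* to *Mvp* went from 0.803 ± 0.132 in WT to 3.23 ± 0.798 in Mvp KO (SD, n = 4 each). Both ratios contain the drop of *Mvp* and give no separate evidence on its partners. The ratio of *Parp4* to *Tep1* ran from 1.01 to 1.18 in WT and from 0.923 to 1.36 in Mvp KO, and the genotypes overlapped.

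**Figure D1:**
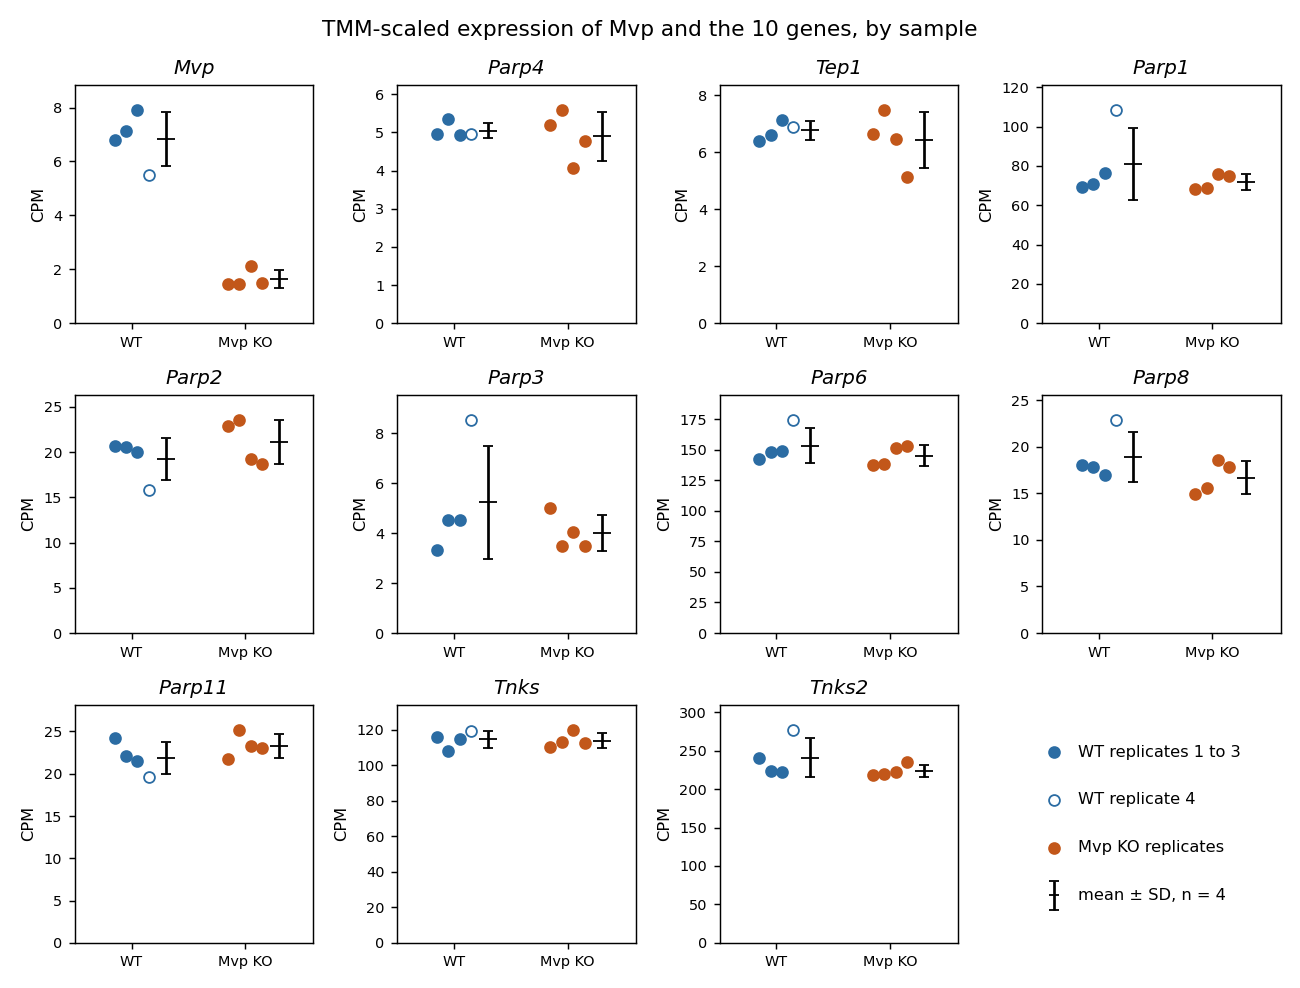
CPM of *Mvp* and of each of the 10 genes in the 4 WT (blue, replicate 4 open) and 4 Mvp KO (orange) samples, with the mean ± SD of each genotype in black; each axis starts at 0. The genotypes separate for *Mvp* and overlap for all 10 other genes, and WT replicate 4 is the highest sample for 5 of the 10 and the lowest for 2.

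The 3 PARPs that respond to DNA strand breaks are PARP1, which makes most of the poly-ADP-ribose of a cell, PARP2, its closest relative, and PARP3, which adds single ADP-ribose units. *Parp1* had 69.1, 70.7, 76.5 and 108 CPM in WT and 68.03, 68.9, 75.8 and 74.6 CPM in Mvp KO. The WT replicate 4 value lay above all others, and the other 7 samples overlapped within a narrow range. Its log2 fold change was -0.17 (standard error 0.137) and became -0.0018 without WT replicate 4. *Parp2* had 20.7, 20.6, 19.96 and 15.8 CPM in WT and 22.9, 23.5, 19.3 and 18.7 CPM in Mvp KO. Here WT replicate 4 was the lowest sample, and Mvp KO replicates 1 and 2 were the highest. The log2 fold change of *Parp2* was 0.13 (standard error 0.117), or 0.051 without WT replicate 4. *Parp3* was the least precisely measured of the 10 genes, with 3.33, 4.54, 4.52 and 8.51 CPM in WT and 5.01, 3.50, 4.05 and 3.47 CPM in Mvp KO. Its log2 fold change of -0.38 (standard error 0.277) rested on WT replicate 4, at 8.51 CPM, and was -0.039 without it.

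PARP6, PARP8 and PARP11 add single ADP-ribose units, and PARP6 is known for a part in the growth of dendrites. *Parp6* was among the most highly expressed of the 10 genes, with 143, 148, 149 and 174 CPM in WT and 138, 138, 152 and 153 CPM in Mvp KO. *Parp8* had 18.0, 17.9, 16.9 and 22.8 CPM in WT and 14.9, 15.5, 18.5 and 17.8 CPM in Mvp KO. For both genes WT replicate 4 was highest and Mvp KO replicates 1 and 2 were lowest, as the reverse of *Parp2*. Their log2 fold changes were -0.08 (standard error 0.0811) and -0.18 (standard error 0.119), and without WT replicate 4 they were -0.0092 and -0.075. *Parp11* had 24.2, 22.1, 21.5 and 19.7 CPM in WT and 21.8, 25.2, 23.2 and 23.1 CPM in Mvp KO, which overlap, with a log2 fold change of 0.09 (standard error 0.0863), or 0.047 without WT replicate 4, its lowest sample.

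The tankyrases bind their targets through ankyrin repeats and mark proteins such as axin, a brake of Wnt signaling, for degradation. *Tnks* was the steadiest of the 10 genes, with 116, 108, 115 and 119 CPM in WT and 110, 113, 120 and 113 CPM in Mvp KO. Its highest sample was 1.11 times its lowest, and its log2 fold change was -0.01 with a fold interval from 0.905 to 1.09. The antisense *Gm9939* covers 4.265% of the exonic bases of *Tnks*. *Tnks2* had 240.2, 223, 222 and 277 CPM in WT and 218, 220, 222 and 235 CPM in Mvp KO. Apart from WT replicate 4 and WT replicate 1, its samples lay within the range of the Mvp KO group. The log2 fold change of *Tnks2* was -0.10 (standard error 0.0831), or -0.027 without WT replicate 4.

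Of the 10 genes, 0 passed an adjusted p of 0.05 by edgeR's quasi-likelihood test, 0 had an unadjusted p under 0.05 (1.56% of all genes tested did), and 0 had genotypes that did not overlap (1.52% of all genes). DESeq2's Wald test and limma voom also called 0 of them, at either p. The lowest adjusted p of the 10 was 0.969, and their median log2 fold change was -0.08 against 0.00 for all genes. Point estimates were below 0 for 8 of the 10, against 50% of all genes, and the 95% interval of each included 0. Without WT replicate 4, the estimates of the 10 genes ran from -0.075 for *Parp8* to 0.051 for *Parp2*, and that of *Tnks* turned to 0.014. For 9 of the 10 the 95% interval excluded a ratio beyond 1.5-fold in either direction, against 64.5% of all genes. The exception was *Parp3*, whose interval ran from 0.5002 to 1.18 and came within 1.5-fold only without WT replicate 4 or with limma voom among the alternatives run. The interval of *Parp1* ran from 0.716 to 1.096.

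**Figure D2:**
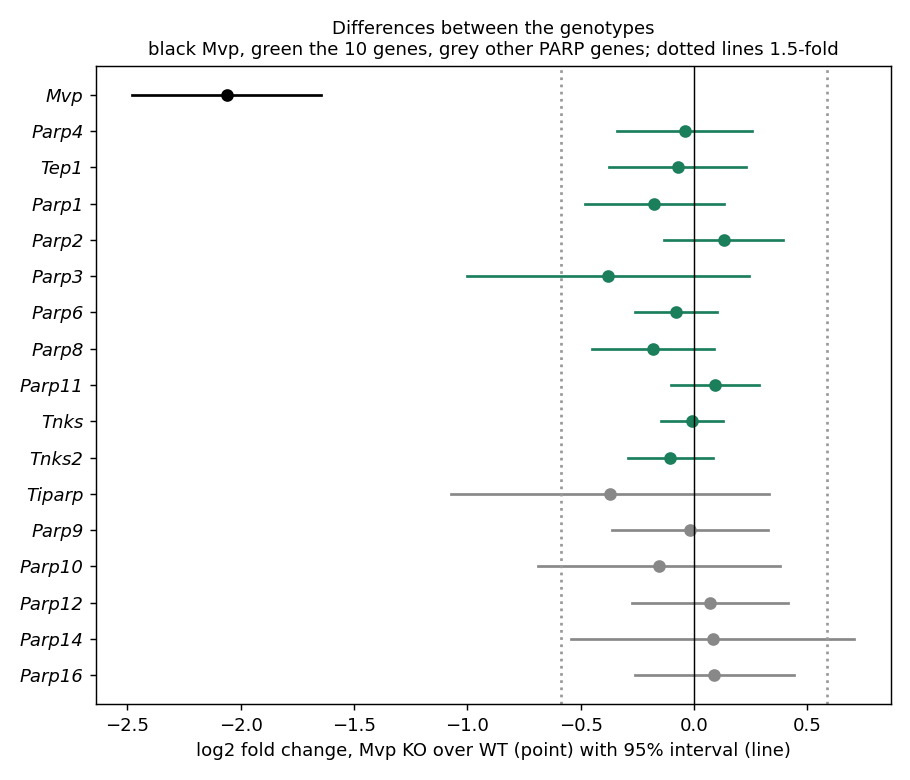
Log2 fold change of Mvp KO over WT (horizontal axis) with its 95% interval for *Mvp* (black), the 10 genes (green) and 6 other PARP genes (grey); dotted lines mark 1.5-fold. All intervals but that of *Mvp* include 0, and among the 10 genes *Parp3* alone reaches past a dotted line.

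The levels of the 10 genes covered more than an order of magnitude per length, with the vault partners at the lower end. In WT, the means in CPM per kb of exonic bases were 23.1 for *Tnks2*, 19.8 for *Parp6*, 15.3 for *Parp1*, 7.70 for *Tnks*, 5.31 for *Parp2*, 3.11 for *Parp11*, 2.13 for *Parp8*, 1.41 for *Parp3*, 0.772 for *Parp4* and 0.707 for *Tep1*. The order by mean was the same in Mvp KO. Neighbours in this order whose WT ranges overlapped were *Tnks2* and *Parp6*, *Parp6* and *Parp1*, and *Parp8* and *Parp3*; in Mvp KO, only *Parp4* and *Tep1* overlapped. In CPM per kb over all samples, *Parp4* stood above 22.3% and *Tep1* above 21.1% of the genes with an annotated length, and *Tnks2* above 87.3%. With the length of the longest coding transcript instead, 6 of the 10 genes changed rank in WT, all by trading places with a neighbour: *Parp6* came before *Tnks2*, *Parp8* before *Parp11* and *Tep1* before *Parp4*. In bulk tissue, fewer cells that express a gene and less of its RNA per cell cannot be told apart.

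**Figure D3:**
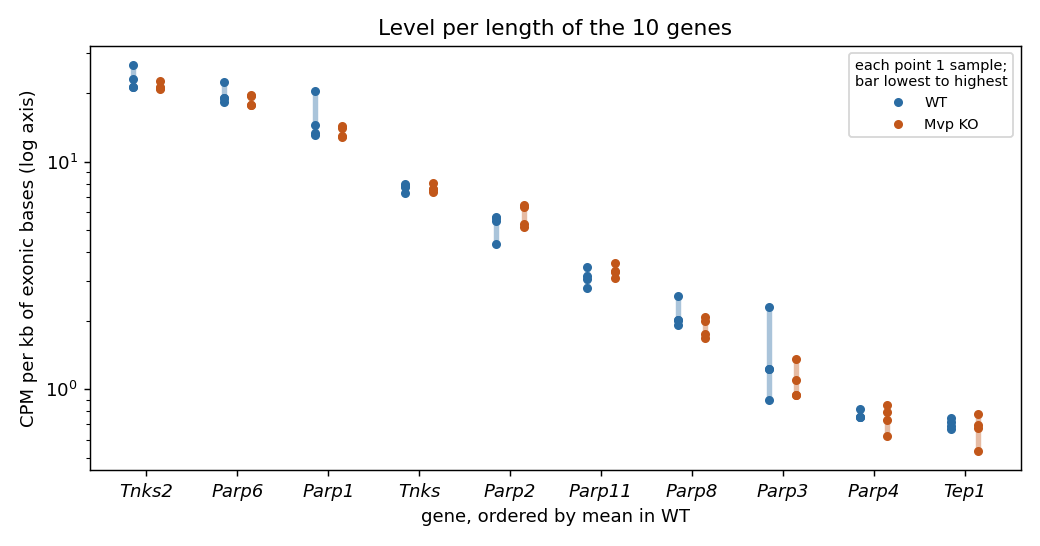
Level in CPM per kb of exonic bases on a log axis, with 1 point per sample and bars from the lowest to the highest of the 4 WT (blue) and 4 Mvp KO (orange) samples. *Tnks2*, *Parp6* and *Parp1* form the upper end and *Parp4* and *Tep1* the lower end in both genotypes.

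The spread between samples was compared as well as the level. The SD of log2 CPM of *Parp4* was 0.055 in WT and 0.19 in Mvp KO, and that of *Tep1* was 0.069 in WT and 0.23 in Mvp KO. These SDs rest on 136 to 232 counts per sample for *Parp4* and 146 to 287 for *Tep1*. At such counts the counting noise alone spreads the samples, and a close WT group of 4 can arise by chance. The part of counting noise in these SDs was not tested. In the remaining 8 genes the SD was larger in WT, as it was for 61.4% of all genes. Permutation tests of the mean deviation from the genotype median (two-sided, 70 arrangements, smallest possible p 0.0286) gave p = 0.0857 for *Parp4* and p = 0.429 for *Tep1*. Each deviation was taken from the median of its own genotype, so these permutation p-values are approximate and not exact. The statistic of this test is the mean deviation, not the SD. For *Parp2* (0.107 in WT, 0.144 in Mvp KO) and *Parp8* (0.110 in WT, 0.128 in Mvp KO) it was larger in Mvp KO, the reverse of their SDs. None of the 10 genes had a p under 0.05 in this test, against 7.04% of all genes, and the adjusted p of *Parp4* was 0.805. Without WT replicate 4, the SD was larger in Mvp KO for 6 of the 10 genes, as for 67% of all genes. *Parp2*, *Parp6* and *Parp8* then each reached p = 0.0286, the smallest p that this permutation test of 3 against 4 samples allows. With 3 WT samples the median is itself 1 of them, which lowers the mean WT deviation and tilts the test towards a larger spread in Mvp KO. A p of 0.0286 in this permutation test was reached by 7.24% of all genes without that sample, and the adjusted p of these 3 genes was 0.395. For *Parp2*, the SD of log2 CPM was then 0.028 in WT (n = 3) and 0.17 in Mvp KO (n = 4).

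**Figure D4:**
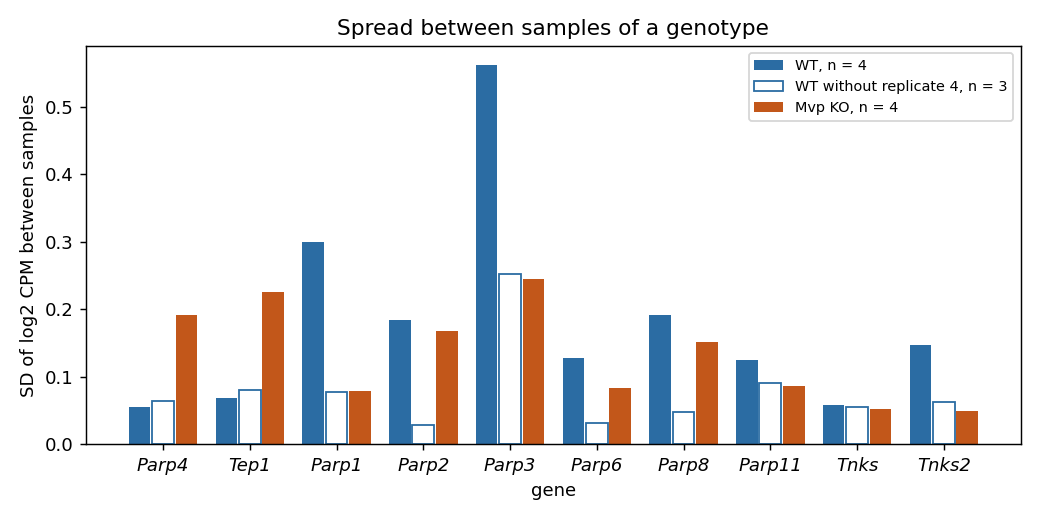
SD of log2 CPM between the samples of a genotype for each of the 10 genes: WT (filled blue, n = 4), WT without replicate 4 (open blue, n = 3) and Mvp KO (orange, n = 4). *Parp4* and *Tep1* have the larger SD in Mvp KO with or without WT replicate 4, and the WT bars of *Parp1* and *Parp3* shrink to the height of the Mvp KO bars without that replicate.

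Several of these genes varied together across the samples of both genotypes taken as 1 set. Over the 8 samples, *Parp2* ran opposite to *Parp6*, with a Pearson correlation of log2 CPM of -0.98 and a Spearman correlation of -0.98; over the 7 samples without WT replicate 4 the Pearson value was -0.96. *Parp1* and *Parp6* ran together, at 0.95 over 8 and 0.87 over 7 samples. *Parp4* and *Tep1*, the vault partners, had a Pearson correlation of 0.38 over 8 samples. These were read among 45 pairs and are descriptions, since all pairs share the same libraries and scaling.

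Markers of other cell types moved with some of these patterns. The summed CPM of 6 oligodendrocyte markers was 5518 and 3771 in Mvp KO replicates 1 and 2, 1901 and 1486 in Mvp KO replicates 3 and 4, and 1685, 2107, 2721 and 1291 in WT replicates 1 to 4. *Parp2* was highest, and *Parp6* and *Parp8* lowest, in the 2 Mvp KO samples with the most oligodendrocyte RNA. Over the 7 samples without WT replicate 4, the Pearson correlation with the log2 of this sum was 0.84 for *Parp2*, -0.79 for *Parp6* and -0.94 for *Parp8*. With Mvp KO replicates 1 and 2 left out instead, the values were 0.69, -0.62 and -0.74. *Tnks2* also ran opposite to this sum, at -0.77 over the 7 samples and -0.80 with Mvp KO replicates 1 and 2 left out. Over the 7 samples, 6 of 6 markers had the same sign for each of these genes. This was so for all 10 genes, also where the correlation was weak, as for *Parp11* at -0.19 and *Tnks* at -0.38. The agreement of the markers therefore does not set these genes apart. *Parp4* was also compared with 6 endothelial markers, whose sum ran from 173 to 255 CPM in WT and from 178 to 238 CPM in Mvp KO. Their Pearson correlation was 0.75 over 8 samples, 0.87 over the 7 samples and 0.92 with WT replicates 2 and 4 left out, with 5 of 6 markers positive over the 7 samples. *Parp2* had a similar relation to the same markers, at 0.75 over 8 samples, 0.66 over the 7 samples and 0.92 with those 2 WT replicates left out, and *Parp6* ran opposite to them, at -0.69, -0.56 and -0.90. So did *Tnks*, at -0.79, -0.72 and -0.53, and *Parp1*, at -0.66, -0.68 and -0.79. *Parp4* also rose with the sum of 8 immediate early genes, at 0.43 over 8 samples and 0.60 over the 7 samples. None of the markers in these lists was at 0 counts over all samples. Over 8 samples the strongest of the 90 relations between the 10 genes and 9 marker lists was that of *Parp1* with striatal neuron markers, at 0.95, which was 0.58 without WT replicate 4. *Tep1* and the red blood cell markers had 0.37 over 8 samples, 0.87 over the 7 samples and 0.35 with Mvp KO replicate 4 and WT replicate 4 left out. The relations given are a choice from these 90 made after their values were seen, and the part of cell composition in the spread of the members was not tested.

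**Figure D5:**
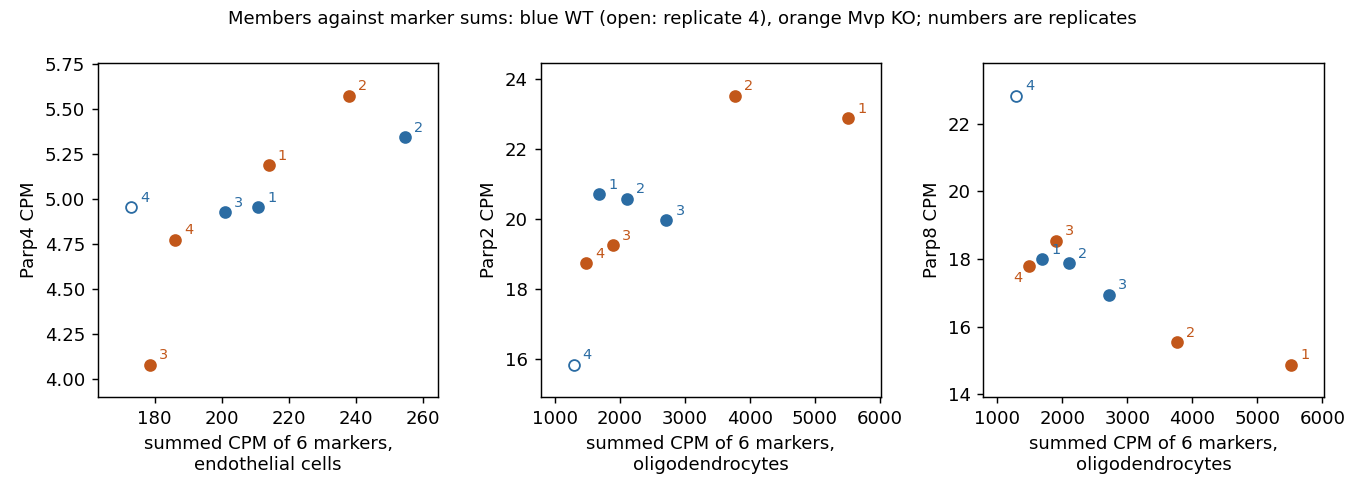
CPM of *Parp4* against the summed CPM of 6 endothelial markers, and CPM of *Parp2* and *Parp8* against the summed CPM of 6 oligodendrocyte markers; each point is 1 sample, blue WT (replicate 4 open) or orange Mvp KO, numbered by replicate. Mvp KO replicates 1 and 2 hold the most oligodendrocyte RNA, the highest *Parp2* and the lowest *Parp8*.

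The genes whose pattern over the 8 samples was most like that of *Parp4*, among 14413 genes with a mean of at least 1 CPM, were *Ndp*, the gene of the Wnt pathway ligand norrin (Pearson r = 0.98), *Scarf1*, a scavenger receptor of endothelial cells (0.96), and *Gbp3*, an interferon-induced GTPase (0.94). With Mvp KO replicates 2 and 3 left out, these values were 0.97, 0.91 and 0.86. For *Tep1*, they were *Cirbp*, a cold-inducible RNA-binding protein gene (0.97), and the noncoding *4930525G20Rik* (0.96) and *Myhas* (0.96). With Mvp KO replicates 2 and 4 left out, they fell to 0.73, 0.54 and 0.55, so the likeness to *Tep1* rested largely on those samples. These genes were picked as the most similar of many over few samples.

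The 6 other PARP genes also overlapped between the genotypes. *Tiparp*, a target of the aryl hydrocarbon receptor, had 28.6, 41.7, 29.2 and 74.6 CPM in WT and 46.4, 32.0, 29.2 and 26.9 CPM in Mvp KO. WT replicate 4 held its highest value, as it did the highest sum of 8 immediate early genes, 2391 CPM, where the remaining samples ran from 556 to 1467 CPM. The log2 fold change of *Tiparp* was -0.37, and 0.023 without that replicate. *Parp9*, *Parp10*, *Parp12* and *Parp14*, which respond to interferon, and *Parp16*, an enzyme of the endoplasmic reticulum, had WT means of 3.79, 2.48, 10.2, 4.09 and 4.08 CPM. Their log2 fold changes ran from -0.15 for *Parp10* to 0.09 for *Parp16*. *Parp14* was highest in Mvp KO replicate 1, at 6.91 CPM against 3.02 to 5.02 CPM elsewhere. The vault RNA gene *Vaultrc5* had 4 counts in all, too few to test, in libraries selected for poly-A tails.

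In the wider pathway, 42 of 43 listed genes were tested, and 0 of them passed an adjusted p of 0.05 or an unadjusted p of 0.05 by edgeR's quasi-likelihood test. Point estimates were above 0 for 18 and below 0 for 24, with a median log2 fold change of -0.01. Among 6 tested genes that remove ADP-ribose, *Parg*, the main hydrolase of poly-ADP-ribose chains, had 41.5, 41.0, 42.1 and 43.9 CPM in WT and 37.4, 39.3, 41.0 and 40.7 CPM in Mvp KO. It was the single pathway gene whose genotypes did not overlap, by the narrow gap between WT replicate 2 at 41.04 and Mvp KO replicate 3 at 41.03 CPM, with a difference of -0.09 on the log2 scale (SE 0.0617; adjusted p = 0.969, edgeR's quasi-likelihood test). With DESeq2's size factors, 0 pathway genes were without overlap, so the separation of *Parg* depended on the scaling. The share of all genes without overlap, 1.52% with all samples, was larger whenever 1 sample was left out. The count was 3 without WT replicate 1, WT replicate 2 or Mvp KO replicate 4, where the shares of all genes were 4.17%, 3.22% and 3.4%. It was 2 without WT replicate 3, WT replicate 4 or Mvp KO replicate 3, where the shares were 3.8%, 2.8% and 3.42%, and stayed at 1 without Mvp KO replicate 1 or 2, where they were 4.03% and 3.24%. *Adprh* had the highest level per length of that group, at 28.1 CPM per kb in WT. Among 8 genes of strand-break repair that work with PARP1, *Polb*, the DNA polymerase of base excision repair, had both the highest level per length (11.2 CPM per kb in WT) and the smallest p, with 44.2 ± 3.49 CPM in WT and 41.3 ± 2.62 CPM in Mvp KO (SD, n = 4 each). WT replicate 4 held the highest *Polb* value, 48.7 CPM, where the remaining samples of both genotypes ran from 37.6 to 44.9 CPM. Among 8 tankyrase partners, *Rnf146*, the ubiquitin ligase that reads tankyrase marks, was highest per length (16.7 CPM per kb), and *Amot*, the gene of the scaffold protein angiomotin, had 33.2 ± 1.94 CPM in WT and 29.7 ± 2.69 CPM in Mvp KO. Of the 6 telomerase particle genes, *Nhp2* was highest per length at 22.9 CPM per kb, and *Gar1* had 16.3 ± 3.62 CPM in WT and 13.5 ± 0.623 CPM in Mvp KO, with WT replicate 4 at 21.6 CPM; its log2 fold change was -0.27, or -0.098 without that replicate. Of 8 genes of NAD synthesis, *Nmnat2*, a neuronal NAD-forming enzyme that protects axons, was highest per length at 39.0 CPM per kb, and *Nmnat3* had 1.94 ± 0.177 CPM in WT and 2.501 ± 0.460 CPM in Mvp KO, the largest positive estimate of its list (log2 fold change 0.37, standard error 0.179).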

How the data were processed

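Bulk RNA sequencing of the cingulate cortex covered 4 WT and 4 Mvp KO mice. The authors deposited raw counts per gene, made with cutadapt 1.10, Bowtie2 2.2.8, STAR 2.5.3a on mm10 and HTSeq 0.6.1p1 with Ensembl annotation; the strand setting is not stated. Symbols, positions and lengths came from GENCODE on GRCm38, which holds 53274 of the 53379 identifiers.

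Counts were filtered with filterByExpr (minimum count 10, minimum total 15), scaled with TMM factors and tested with edgeR 4.0.16 (quasi-likelihood, robust, genotype as the single term) in R 4.3.3, with Benjamini-Hochberg adjustment over all genes tested. A 95% interval is the log2 fold change ± the t quantile times its standard error. Log2 CPM used a prior count of 2. Alternatives were DESeq2 1.42.0, limma 3.58.1, other filters, the replicate number as a block and leaving out each sample. The fits and the test of spread were tested on simulated data. Tables and figures used Python 3.11.15.

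Depth was 28456504 to 42854368 counts per sample, and a count of 0 allows up to 3 counts. No pair of samples of a genotype agreed within sampling noise (chi-square per gene 7.00 to 95.6). The methods of the study call its replicates biological; the labels name no animals.

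The members and lists were chosen with earlier results of these data known. Named genes are *Mvp*, the members, the other PARP and vault genes, the gene highest per length and that with the smallest p of each pathway list, genes past the threshold and the 3 genes most like *Parp4* and *Tep1*. Samples with the same number had correlations of their deviations of 0.055, 0.29, -0.0067 and 0.051, so the numbers were not taken to pair them.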

Additional observations from a re-analysis of the deposited data

Results flagged for a closer look

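For *Mvp*, the 10 genes and the 6 other PARP genes, Dixon's ratio compared how far the highest or lowest of 4 samples lay from the next one with the range of its genotype. Of 34 such groups, 3 passed the 95% critical value, where chance gives about 1 in 20, or 1.7 groups. WT replicate 2 held 5.34 CPM of *Parp4*, while WT replicates 1, 3 and 4 lay between 4.93 and 4.95 CPM (ratio 0.933). WT replicate 4 held 15.8 CPM of *Parp2*, below a range of 19.96 to 20.7 CPM in WT replicates 1 to 3 (ratio 0.848). Mvp KO replicate 3 held 2.13 CPM of *Mvp*, above a range of 1.44 to 1.51 CPM in Mvp KO replicates 1, 2 and 4 (ratio 0.903). The causes of these values were not tested.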

How the results depend on the processing

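Over 19 results, the alternatives gave 247 values, and 225 of them had the sign and the call of the reported value, or lay close to it. The count of the 10 genes past an adjusted p of 0.05 was 0 in all alternatives, as was the count of pathway genes. Within 1.5-fold lay between 8 and 10 of the 10 genes over all alternatives. Signs of small log2 fold changes turned. With limma voom, *Parp6* was at 0.0039 and *Tnks* at 0.026. When each of the 8 samples was left out in turn, *Parp4* ran from -0.11 to 0.037 (highest without Mvp KO replicate 3), *Tep1* from -0.16 to 0.018 (highest without Mvp KO replicate 4) and *Tnks* from -0.037 to 0.014. The count of genes with a different spread, 0, ran from 0 to 3 in such fits, with 3 without WT replicate 4. With the longest coding transcript, 6 genes changed rank; over the left-out samples the number was 0. The count of pathway genes whose genotypes did not overlap (alternatives added after seeing the data) was 0 with DESeq2's size factors and 1 to 3 without 1 sample. *Mvp* stayed lower in each alternative, at -2.07 with the replicate block, where its adjusted p of 0.0850 by edgeR's quasi-likelihood test was above the threshold; without 1 sample it ran from -2.22 to -1.99 and stayed under the threshold in 2 of the 8 fits. The block changed no other call. For none of these changes was the cause tested. *Parp4*, *Tep1* and *Parp3* had the fewest counts of the 10 genes, and the share of depth in the width of their intervals was not tested.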
